A study of Mus musculus with 12 samples.

Results

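Solute carriers are membrane proteins that move amino acids, sugars, ions, metals, vitamins, nucleosides and other small molecules across the plasma membrane or the membranes of mitochondria, lysosomes and the Golgi, and they are numbered in families by sequence (Slc1, Slc2 and so on). The genes described here are those whose name in the array's annotation begins with Slc followed by a number, without the glucose carriers Slc2a1 and Slc2a3 and the lactate carriers Slc16a1 and Slc16a3. The array holds 317 such genes among 27640 genes and unnamed features. Each gene was represented by its brightest probe, and 198 of the 317 were kept because that probe lay well above background (the scanner software's own flag) on 3 or more of 12 arrays, as did 15523 features in all. Of the others, 62 lay above background on 0 arrays. The rule's edge ran between 14 genes above background on exactly 3 arrays, among them Slc7a11 and Slc38a5, and 15 on exactly 2 arrays, among them Slc1a2 and Slc5a8. Of the kept names, Slc4a1ap, Slc7a6os, Slc9a3r1 and Slc9a3r2 are named after a carrier and are not carriers themselves. They are counted with the carriers below, and Slc4a1ap is among those called lower in tumour.

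The arrays measured RNA of Treg, the suppressive Foxp3-expressing lineage of CD4 T lymphocytes, in 4 groups of 3 experiments each. IL10+ and IL10- tumour Treg were sorted by the EGFP reporter of interleukin 10 in VERT-X mice on the C57BL/6 background, within a gate on CD25+ and CD120b+/low. Total tumour Treg and spleen Treg were sorted by the EGFP reporter of Foxp3 in FoxP3-EGFP mice, also C57BL/6, so reporter strain and gate differ between the IL10 fractions and the other groups. Every sort began with CD3+CD4+ cells among CD45+ cells low in CD11b; the tumours were subcutaneous MC38, a mouse colon carcinoma line, pooled within an experiment at 2 weeks, and the spleens came from tumour-free mice.

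T cells depend on carriers for growth after activation. The heterodimer of Slc7a5 and Slc3a2 brings in leucine and other large neutral amino acids, which the kinase complex mTORC1 senses, and the transcription factor Atf4 raises many amino acid carriers when amino acids run short. Zinc, iron and copper carriers set the metal content of a cell, mitochondrial carriers of the Slc25 family link the cytosol with the matrix, and several carriers are defining genes of other cells, such as the anion exchanger Slc4a1 of red cells and the iron exporter Slc40a1 of macrophages.

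Between 42.1% and 65.2% of 41174 probes lay well above background on an array, and the 75th percentile of the signal ranged over 92.3 to 606 intensity units. Both were lowest in IL10+ replicate 3; the share was highest in IL10- replicate 1 and the percentile in IL10+ replicate 1. Levels below are log2 of the processed signal minus that percentile of the same array, so a level of one gene is not comparable with a level of another. The T cell and Treg markers did not all fit the labels. The Foxp3 probe was well above background on all 6 arrays of the IL10 fractions and on 0 of the 6 arrays sorted by the Foxp3 reporter, at levels of -6.38, -6.53 and -6.17 in total tumour and -6.09, -5.77 and -6.33 in spleen; whether the reporter allele lacks the probe's target was not tested. Spleen replicate 2 stood apart from the other spleen arrays: Il2ra, which encodes CD25, was at -3.90 there against 0.72 and 1.27 in replicates 1 and 3, and Ctla4 was at -0.89 against 3.12 and 3.29. In replicate 1 of both IL10 fractions the T cell gene Cd3e was at 1.73 and 2.08, against 4.80 to 5.87 on the other 4 arrays of those fractions; total tumour arrays were at 2.62 to 3.16 and spleen arrays at 3.16 to 3.42. Counts are therefore also given without spleen replicate 2.

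Set against spleen Treg, total tumour Treg had 49 of the 198 carriers higher and 43 lower, a call being an adjusted p under 0.05 over all 15523 features (limma, Benjamini-Hochberg). That is 46.5% of the carriers, 24.7% higher and 21.7% lower, beside 42.3% of all features, 22% higher and 20.3% lower, so the share called was near the background. The carriers' median log2 difference was -0.02, beside -0.01 for all features. The total tumour arrays lay all above the spleen arrays for 66 carriers (beside 32.4% of all features) and all below them for 69 (beside 33.3%), together 68.2%, beside 65.8% of all features. A change of at least 2-fold was reached by 39 of the higher and 26 of the lower carriers. The p-values measure the spread between the labelled experiments, and in bulk RNA a change in the share of cells of a type and a change in RNA per cell cannot be told apart.

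Without spleen replicate 2, 45 carriers were higher and 38 lower. Only total tumour replicate 3 shared a slide with the spleen arrays, and with the slide as a fixed block 30 were higher and 22 lower; within that slide all 92 called carriers had the sign of the whole comparison, which the absence of overlap between groups fixes for most, with a median ratio of 0.981 to the full difference. Another background correction (normexp, with an offset of 50 intensity units added to every signal) left 13 higher and 10 lower. An added constant narrows log2 differences, most for dim signals. Its part in the lost calls was not tested. Among the 17 carriers that stayed called under every alternative they could be fitted in were Slc5a4a, Slc6a15, Slc41a2, Slc15a3, Slc6a8, Slc37a2, Slc7a8, Slc25a13, Slc26a2 and Slc2a8 (higher) and Slc4a1, Slc12a7, Slc37a1, Slc28a2, Slc39a3 and Slc35b3 (lower).

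**Figure D1:**
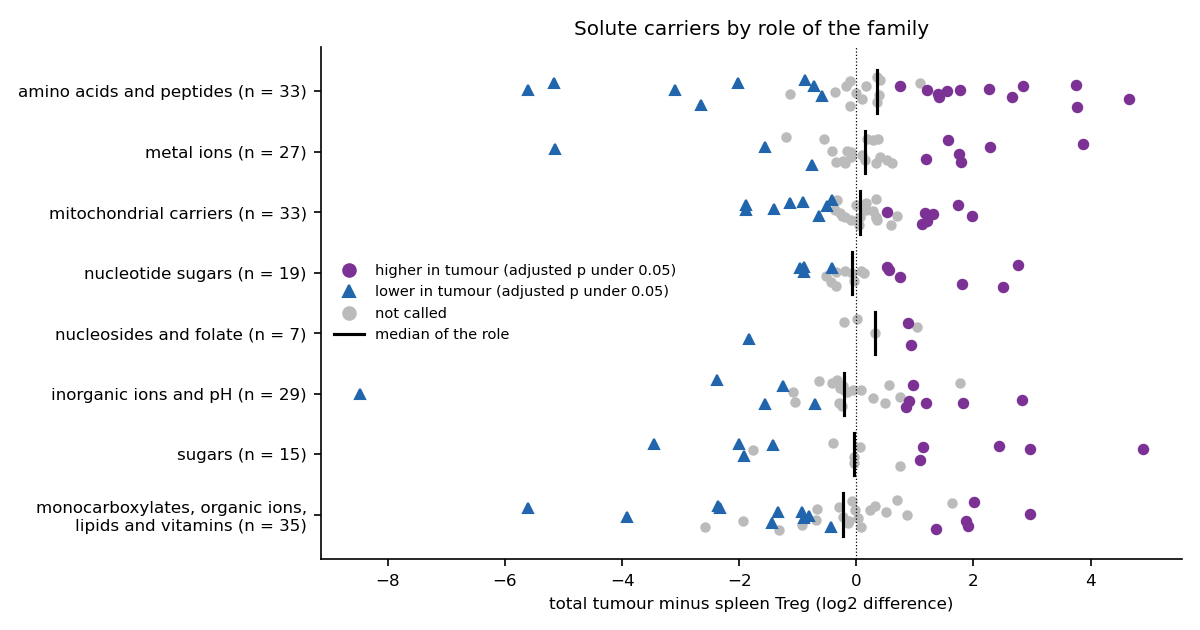
Log2 difference of total tumour against spleen Treg (horizontal axis) for each of the 198 kept carriers, grouped by the solute that the family carries; purple circles are higher and blue triangles lower at an adjusted p under 0.05, grey circles were not called, and the black bar is the median of the role. Each role holds carriers in both directions, with medians between -0.23 and 0.35.

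The carriers of amino acids and peptides had the largest number of called genes among the roles, 12 higher and 8 lower of 33 (60.6%), with a median of 0.35. The shares called that are given for this and the other roles stand beside 42.3% of all features. The higher ones included both chains of the large neutral amino acid exchanger. Slc7a5, its light chain (probe at chr8:124767332-124767391, mm8), was at 1.97, 2.28 and 2.18 in total tumour Treg, against 0.52, 0.83 and 0.45 in spleen Treg. Slc3a2, the heavy chain CD98 (chr19:8774744-8774803), was at 6.00, 5.83 and 6.02 in total tumour Treg, against 4.71, 4.52 and 4.42 in spleen Treg. For both genes every tumour array lay above every spleen array, and the arrays within a group were close together. The log2 differences were 1.55 ± 0.33 (SE, adjusted p = 0.00412) for Slc7a5 and 1.40 ± 0.14 (adjusted p = 5.82e-05) for Slc3a2, whose other probe on the array differed by 1.16. After the normexp correction neither was called (Slc7a5 1.26, adjusted p = 0.252; Slc3a2 1.16, adjusted p = 0.180). The 6 arrays of the IL10 fractions ranged over 1.80 to 3.04 for Slc7a5 and 5.93 to 6.28 for Slc3a2, also above all spleen arrays.

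Of 7 kept members of the sodium-coupled Slc6 family, 3 were called higher (42.9%, beside 22% of all features) and 0 lower (beside 20.3%). Slc6a9, a glycine carrier, was at 1.11, 1.62 and 1.55 in total tumour Treg, against -1.01, -0.65 and -2.06 in spleen Treg, a difference of 2.67 ± 0.60 (SE, adjusted p = 0.00553); it was not called with the slide as a block (2.79, adjusted p = 0.0552) or after normexp (2.04, adjusted p = 0.0802). Slc6a15, a carrier of branched-chain amino acids and proline, was at -1.78, -1.31 and -1.61 in total tumour Treg, against -6.37, -5.62 and -6.69 in spleen Treg. Its probe was well above background on all 9 tumour arrays and on 0 of 3 spleen arrays. As in each other rise with 0 spleen arrays above background, the tumour arrays alone took it past the filter. That detection is no separate support for the call. It also makes the fold a bound: at least 5.59-fold higher (adjusted p = 0.000132). For such a bound, each array of the dim group counted at the higher of 2 values, the gene's own signal or the lowest signal of any probe well above background, and the mean of these was set against the bright group's mean. Slc6a8, the creatine carrier of the same family, was at -0.24, -0.09 and 0.00 in total tumour Treg, against -3.01, -5.68 and -2.88 in spleen Treg, a difference of 3.75 ± 0.63 (adjusted p = 0.00115) and of 2.83 without spleen replicate 2, the lowest array. Its 3 tumour arrays differed by far less than its 3 spleen arrays, and the groups did not overlap.

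Slc7a8, another light chain that pairs with Slc3a2, was at -0.23, 0.69 and 0.07 in total tumour Treg, against -1.37, -2.25 and -2.63 in spleen Treg (difference 2.26 ± 0.34 SE, adjusted p = 0.000563). Slc36a4, a carrier of neutral amino acids, was higher by at least 3.46-fold, with 0 of 3 spleen arrays above background (adjusted p = 0.000325); after normexp the log2 difference was 1.07, not called, against 2.86 before. Slc38a2, a sodium-coupled carrier of small neutral amino acids, was at 3.95, 3.42 and 3.27 in total tumour Treg, against 2.45, 3.06 and 2.90 in spleen Treg. Its difference of 0.74 ± 0.21 (adjusted p = 0.0170) was no longer called without total tumour replicate 1 (0.54) or without spleen replicate 1 (0.57), nor after normexp (0.58) or with the slide as a block (0.46). Of its other probes, 1 differed by 0.72 and was not called, and those at 1.92 and 1.95 were called.

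Slc1a5, Slc7a1 and Slc7a11, known carriers of glutamine, arginine and cystine, gave no call by their brightest probes. Slc1a5, a glutamine carrier, was at 4.86, 4.65 and 5.06 in total tumour Treg and at 5.12, 4.88 and 4.92 in spleen Treg, groups that overlapped (difference -0.11 ± 0.26, adjusted p = 0.766). Slc7a1, an arginine carrier, differed by 0.38 ± 0.26 (adjusted p = 0.259). Slc7a11, the cystine carrier, lay above background on only 3 of the 12 arrays, 1 each of the IL10+, IL10- and spleen groups, and its highest level was 0.38 in IL10+ replicate 3 against -5.14 and -5.26 in the other IL10+ arrays. A dimmer probe of Slc7a11 was higher in total tumour than in spleen Treg (1.79, adjusted p = 0.00201 in a fit of every probe), so the probes of this gene disagree.

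The lower amino acid carriers were led by Slc38a5, a glutamine and serine carrier (chrX:7437059-7437118). It was at -6.67, -6.85 and -6.31 in total tumour Treg, against -0.44, -0.47 and -2.10 in spleen Treg, and was above background on all 3 spleen arrays and on 0 of 9 tumour arrays. That is at least 11.5-fold lower (adjusted p = 0.000274). The spleen arrays alone took Slc38a5 past the filter, so its detection in spleen alone is no separate support for the call. Slc43a1, a carrier of large neutral amino acids, was at -4.23, -4.38 and -4.13 in total tumour Treg, against -0.82, -1.56 and -1.08 in spleen Treg (difference -3.09 ± 0.35, adjusted p = 0.000119). These 2 genes thus moved the opposite way to Slc7a5 and Slc3a2, with no overlap between the groups. Slc3a1, the heavy chain of the cystine and dibasic amino acid carrier of kidney and gut, was at least 2.15-fold lower, above background in spleen alone. It too passed the filter through the spleen arrays alone. Slc7a10, a carrier of small neutral amino acids, was at -6.19, -6.95 and -6.41 in total tumour Treg, against 1.17, -6.02 and 0.82 in spleen Treg. Spleen replicate 2 was as low as the tumour arrays; the call (at least 9.02-fold lower, adjusted p = 0.0252) was lost when any total tumour array, or spleen replicate 1 or 3, was left out, and the difference was -7.51 without spleen replicate 2. After normexp none of these 4 carriers was called, and the differences were -1.39 for Slc38a5, -1.0 for Slc43a1, -0.12 for Slc3a1 and -1.82 for Slc7a10.

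**Figure D2:**
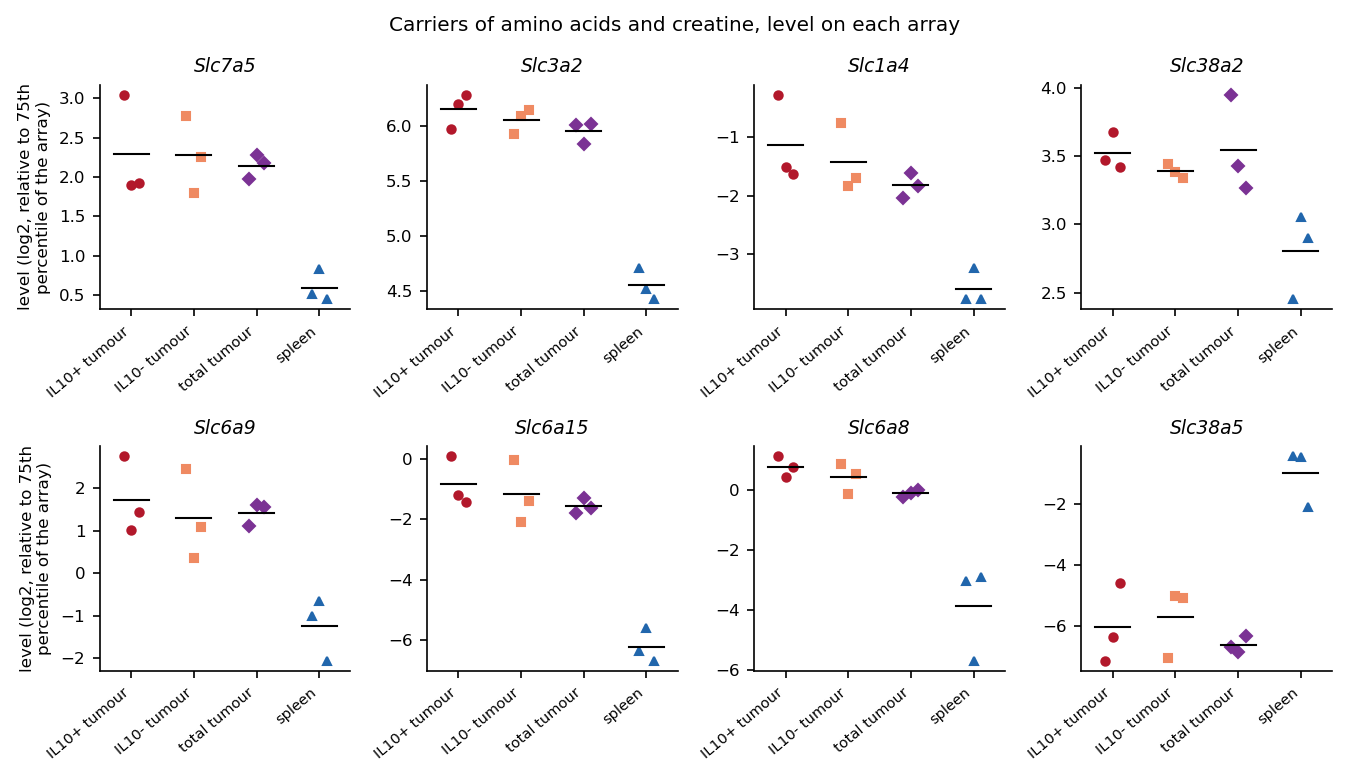
Level on each array (log2 of the processed signal relative to the array's 75th percentile) of 8 carriers of amino acids and creatine in IL10+ tumour, IL10- tumour, total tumour and spleen Treg, 3 arrays each; black bars are group means. For 7 of them every tumour array lies above every spleen array, and for Slc38a5 every tumour array lies below.

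Genes that Atf4 is known to raise, or that act in the same response, were set beside the carriers. Of 20 listed genes, chosen with earlier results of these data known, 12 were higher in total tumour Treg and 0 lower (60%, beside 22% of all features higher), with a median of 0.97 beside -0.01 for all features. Asns, asparagine synthetase, was at 3.56, 3.99 and 4.14 in total tumour Treg, against 0.89, -0.12 and 0.41 in spleen Treg (difference 3.5 ± 0.39, adjusted p = 0.000104). Atf3, a stress-induced partner factor, was at 3.34, 2.64 and 1.27 in total tumour Treg, against -2.26, -3.16 and -2.79 in spleen Treg (difference 5.16 ± 0.47, adjusted p = 3.1e-05). Both genes were clear of the spleen arrays on every tumour array. Of 21 genes of amino acid sensing by mTORC1, 3 were higher and 5 lower (14.3% and 23.8%, beside 22% and 20.3% of all features). The share called, 38.1%, was thus near the 42.3% of all features. Among the lower ones, Sesn3, a sestrin, fell by 2.29 ± 0.18 on the log2 scale and Nprl2, a subunit of the inhibitory GATOR complex, fell by 1.04 ± 0.12.

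The core of the element that Atf4 binds with C/EBP factors, TGATGNAA on either strand, was searched in RefSeq promoter windows (GRCm38.p6, 250 bases before to 50 after the start of a gene), a motif chosen after the values were seen. It was in the window of 4.51% of 27025 genes. Of the higher carriers with a window, 1 of 38 (2.63%) held it, Slc1a4; of the lower ones, 1 of 31 (3.23%), Slc23a3; of those not called, 3 of 83 (3.61%), Slc7a11, Slc7a7 and Slc9a9. Of the higher genes on the Atf4 list, 5 of 11 (45.5%) held it, Asns and Atf3 among them. That list was made of genes known for this response, and its other genes were not counted. The share is therefore no test of Atf4 in these data. The 3 windows below set the higher carrier with a match (Slc1a4, chr11:20332664-20332963, minus strand) beside a carrier uncalled by its brightest probe with a match on each strand (Slc7a11, chr3:50443564-50443863, minus strand) and a higher carrier without one (Slc3a2, chr19:8713848-8714147, minus strand). They run 5′ to 3′ along the gene, and capitals mark the matches; a match describes these letters and is not evidence of binding.
Slc1a4: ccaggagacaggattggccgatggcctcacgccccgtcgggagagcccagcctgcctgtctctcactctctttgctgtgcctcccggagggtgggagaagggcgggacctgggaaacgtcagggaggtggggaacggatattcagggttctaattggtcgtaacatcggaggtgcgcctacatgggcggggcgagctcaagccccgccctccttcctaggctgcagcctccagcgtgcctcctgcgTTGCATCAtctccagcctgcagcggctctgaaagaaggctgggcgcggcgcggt
Slc7a11: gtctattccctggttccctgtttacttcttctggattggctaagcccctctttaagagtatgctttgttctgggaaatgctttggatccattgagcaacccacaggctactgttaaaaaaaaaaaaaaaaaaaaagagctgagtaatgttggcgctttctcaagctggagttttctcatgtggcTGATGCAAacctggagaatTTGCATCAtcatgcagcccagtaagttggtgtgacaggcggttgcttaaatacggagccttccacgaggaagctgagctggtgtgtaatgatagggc
Slc3a2: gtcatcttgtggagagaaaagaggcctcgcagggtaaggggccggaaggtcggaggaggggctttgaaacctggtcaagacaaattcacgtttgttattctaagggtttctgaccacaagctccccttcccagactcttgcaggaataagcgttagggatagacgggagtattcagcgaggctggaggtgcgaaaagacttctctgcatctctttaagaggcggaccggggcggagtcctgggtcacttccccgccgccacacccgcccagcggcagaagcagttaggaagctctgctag
Slc1a4, a carrier of alanine, serine and cysteine, was at -2.03, -1.61 and -1.83 in total tumour Treg, against -3.77, -3.25 and -3.77 in spleen Treg. The groups did not overlap (difference 1.77 ± 0.39, adjusted p = 0.00496), and the call was lost after normexp.

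Of 27 metal carriers, 6 were higher in total tumour Treg and 3 lower (33.3% called), with a median of 0.16. Slc41a2, a magnesium carrier (chr10), was at -0.77, -0.19 and -0.40 in total tumour Treg, against -4.32, -3.79 and -4.85 in spleen Treg, on 0 of whose arrays it was above background: at least 12.1-fold higher (adjusted p = 5.57e-05). Slc39a14, which imports zinc and iron, was at -1.98, -1.73 and -1.84 in total tumour Treg, against -3.80, -3.52 and -3.51 in spleen Treg (difference 1.76 ± 0.16, adjusted p = 2.83e-05). Arrays of a group differed little for this gene, but its other probe differed by only 0.51 and was not called, and after normexp the difference was 0.91, not called. Slc39a4 and Slc30a2, a plasma membrane importer and a vesicle carrier of zinc, and Slc31a1, the copper importer, were higher by 1.56, 2.29 and 1.19 on the log2 scale; Slc39a4 and Slc30a2 lost the call after normexp and with the slide as a block. The zinc importer Slc39a3 fell by 1.56 ± 0.18 (adjusted p = 0.000126), with levels of -1.08, -0.61 and -0.63 in total tumour Treg against 0.63, 1.04 and 0.71 in spleen Treg. Slc39a8, a zinc importer of T cells, and Slc30a1, the zinc exporter at the plasma membrane, differed by 0.28 ± 0.34 and 0.10 ± 0.23, neither called. The other probe of Slc30a1 was lower by 1.34 (log2 difference -1.34, adjusted p = 0.00629 in a fit of every probe).

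Genes of zinc and copper handling that are not carriers of these families were set beside them. Of 7 such genes kept, 5 were higher and 1 lower (71.4% and 14.3%, beside 22% and 20.3% of all features, median 1.04). Mt2, a metallothionein that binds both metals, was at 7.33, 7.46 and 7.42 in total tumour Treg, against 1.45, 0.82 and 1.15 in spleen Treg (difference 6.26 ± 0.40, adjusted p = 4.02e-06), and Mt1 differed by 5.42 ± 0.41. Of 11 other genes of iron and haem handling, 3 were higher and 2 lower (27.3% and 18.2%, near the shares of all features). Tfrc, the transferrin receptor, was at 1.26, 0.84 and 0.78 in total tumour Treg, against -1.06, -0.95 and -1.26 in spleen Treg (difference 2.05 ± 0.39, adjusted p = 0.00227), with no overlap between the groups.

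Some of the largest differences were in carriers that are known from other cells of tumour or spleen. Slc40a1, the iron exporter of macrophages and of red cell precursors, was at -4.63, -5.02 and -4.19 in total tumour Treg, against 1.16, 0.35 and 0.11 in spleen Treg (at least 33.3-fold lower, adjusted p = 5.10e-06; -2.41 after normexp, adjusted p = 0.0505). Slc4a1, the anion exchanger of red cells, was at -6.74, -6.99 and -6.35 in total tumour Treg, against 2.32, 2.77 and 0.23 in spleen Treg (at least 78.4-fold lower, adjusted p = 2.10e-05). Slc25a37, which brings iron into mitochondria for haem synthesis, was at 1.20, 1.35 and 1.58 in total tumour Treg, against 2.85, 3.25 and 2.26 in spleen Treg (difference -1.41 ± 0.24, adjusted p = 0.00114), while its other probe differed by 0.03 and the call was lost with the slide as a block. In each of the 3 genes all tumour arrays lay below all spleen arrays. Of 6 kept carriers listed as known from red cells or B cells, 3 were lower (50%, beside 20.3% of all features). Another 1, Slc6a9, was higher (16.7%, beside 22%). The summed signal of 8 erythroid and platelet markers moved the same way: its log2 ranged over 3.03 to 4.22 in total tumour Treg, with 3 markers above background on each array, and 9.40 to 10.7 in spleen Treg, with 5 to 8. Not every marker fell. Of 7 kept, 4 were called lower (57.1%, beside 20.3% of all features) and 0 higher, and among the 3 not called the difference reached 2.86. Hba-a1 differed by -8.23 ± 1.03, and the summed 11 B cell and plasma cell markers ranged over 4.02 to 4.12 in total tumour and 6.32 to 7.80 in spleen Treg. Their part in these results was not tested.

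On the other side, Slc15a3, a lysosomal carrier of histidine and peptides of macrophages and dendritic cells (chr19:10924353-10924703), was at 3.27, 2.96 and 3.17 in total tumour Treg, against 0.09, -1.54 and -0.47 in spleen Treg (difference 3.78 ± 0.41, adjusted p = 9.13e-05). Slc37a2, a sugar phosphate exchanger abundant in macrophages, was at 1.21, 1.02 and 1.03 in total tumour Treg, against -0.94, -1.48 and -1.64 in spleen Treg (difference 2.44 ± 0.28, adjusted p = 0.000119). Slc11a1, the divalent metal carrier of phagosomes, was at 1.12, 1.60 and 1.0 in total tumour Treg, against 0.04, -0.52 and -1.19 in spleen Treg (difference 1.80 ± 0.36, adjusted p = 0.00308). All 3 were clear of the spleen arrays on every tumour array; Slc11a1 lost its call with the slide as a block (1.56). Of 7 kept carriers listed as known from macrophages, 4 were higher (57.1%) and 1, Slc40a1, was lower (14.3%). Of 6 listed as known from epithelium or stroma (Slc6a8, Slc39a14, Slc39a4 and Slc26a2 among them) 4 were higher (66.7%) and 0 lower. Of all features, 22% were higher and 20.3% lower. These lists are short and were chosen with earlier results of these data known. The 15 macrophage and monocyte markers had a log2 summed signal of 8.87 to 9.65 in total tumour Treg, all 15 above background, and of 6.41 to 7.38 in spleen Treg, 13 or 14 above background. Trem2 was at least 138-fold higher in total tumour Treg and above background on 0 spleen arrays. The sum of 11 fibroblast and endothelial markers ranged over 6.82 to 7.25 in total tumour and 1.86 to 3.12 in spleen Treg. Of these markers 8 were called higher (72.7%) and 1 lower (9.09%). The sum of 7 epithelial markers ranged over 1.17 to 1.75 in total tumour and -0.96 to 1.07 in spleen Treg. These were mostly dim: 2 or 3 lay above background on a total tumour array and 1 or 2 on a spleen array. Only 3 were kept, of which 2 were called higher (66.7%) and 0 lower. The part of all these markers in the carriers' differences was not tested.

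**Figure D3:**
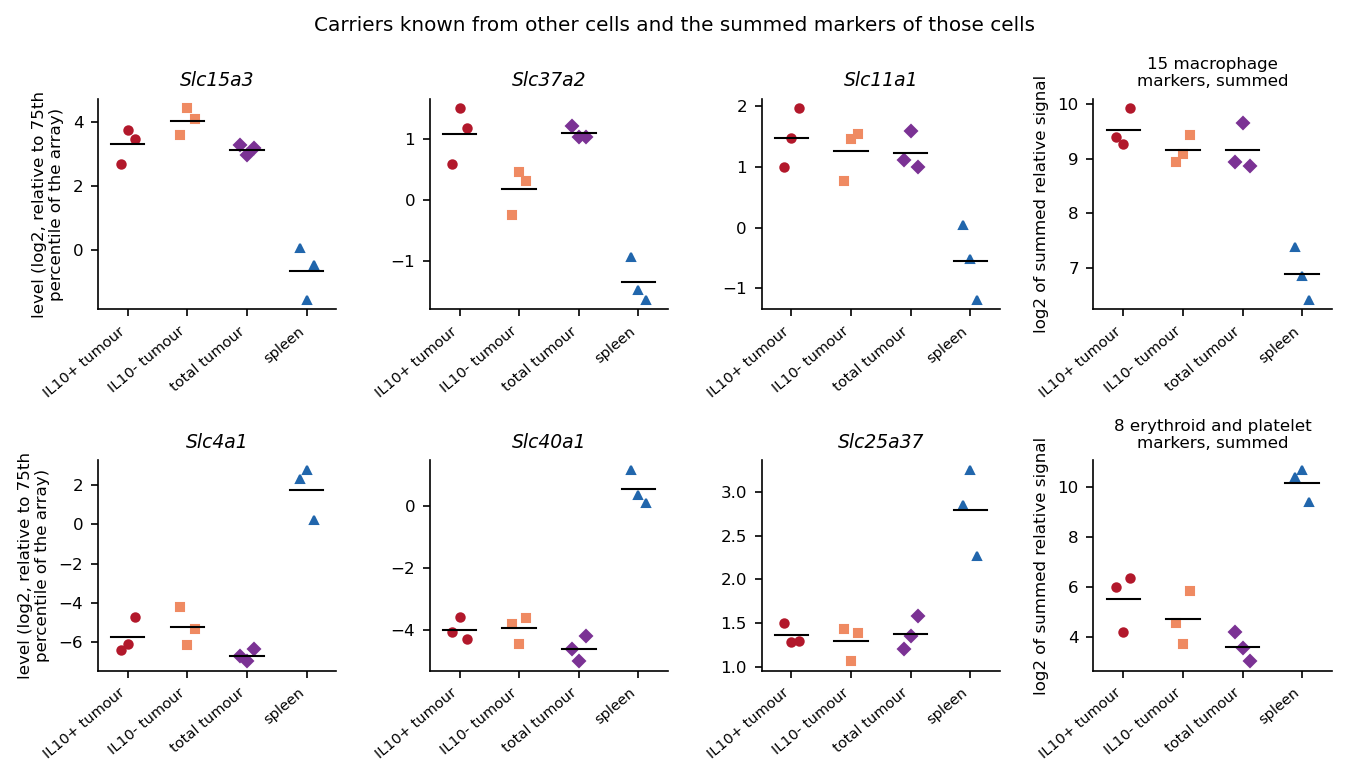
Level on each array (log2, relative to the array's 75th percentile) of 6 carriers known from macrophages or red cells, and log2 of the summed relative signal of 15 macrophage markers and of 8 erythroid and platelet markers, in IL10+ tumour, IL10- tumour, total tumour and spleen Treg (3 arrays each, black bars are means). The upper carriers and the macrophage sum are higher on every tumour array than on any spleen array, and the lower carriers and the erythroid sum are lower. The carriers shown are a choice from the lists. Slc40a1, in the lower row, is on the list of carriers known from macrophages. Slc6a9, on the list known from red cells or B cells, was called higher and is not shown.

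Among 33 mitochondrial carriers, 7 were higher in total tumour Treg and 8 lower (45.5% called), with a median of 0.06. The 2 isoforms of the aspartate and glutamate carrier, which exchanges these amino acids across the inner membrane, went opposite ways. Slc25a13 was at -0.19, 0.20 and 0.11 in total tumour Treg, against -1.54, -2.79 and -1.48 in spleen Treg (difference 1.98 ± 0.31, adjusted p = 0.000710). Slc25a12 was at 2.41, 2.22 and 2.43 in total tumour Treg, against 2.82, 3.27 and 2.88 in spleen Treg (difference -0.64 ± 0.16, adjusted p = 0.00904). Neither pair of groups overlapped.

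The carriers that exchange magnesium-bound ATP for phosphate also split. Slc25a24 was at 3.07, 2.79 and 3.1 in total tumour Treg, against 1.45, 0.83 and 1.44 in spleen Treg (difference 1.74 ± 0.20, adjusted p = 0.000143). Slc25a23 was lower by 1.89 ± 0.51 on the log2 scale, above background on 1 of 3 total tumour arrays and on all 3 spleen arrays. Of the exchangers of ADP and ATP, Slc25a4 was higher by 1.31, and Slc25a5 was at 6.53, 6.40 and 6.53 in total tumour Treg and at 6.42, 6.55 and 6.35 in spleen Treg, not called (difference 0.05 ± 0.20). The direction of that small difference turned under 5 of the alternatives. The carriers of dicarboxylates (Slc25a10), glutathione (Slc25a39) and citrate (Slc25a1) were higher by 1.21, 1.11 and 0.53. The lower carriers included Slc25a27, an uncoupling protein homologue, at -2.60, -1.97 and -2.18 in total tumour Treg, against -0.47, -0.17 and -0.46 in spleen Treg (difference -1.89 ± 0.23, adjusted p = 0.000180), and the carriers of S-adenosylmethionine (Slc25a26) and of basic amino acids (Slc25a29). After normexp Slc25a13 was still called, whereas Slc25a12, Slc25a24, Slc25a23, Slc25a4, Slc25a10, Slc25a39, Slc25a1, Slc25a27, Slc25a26 and Slc25a29 were not (-0.99 for Slc25a27). With the slide as a block Slc25a12, Slc25a10, Slc25a1, Slc25a26 and Slc25a29 lost the call.

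**Figure D4:**
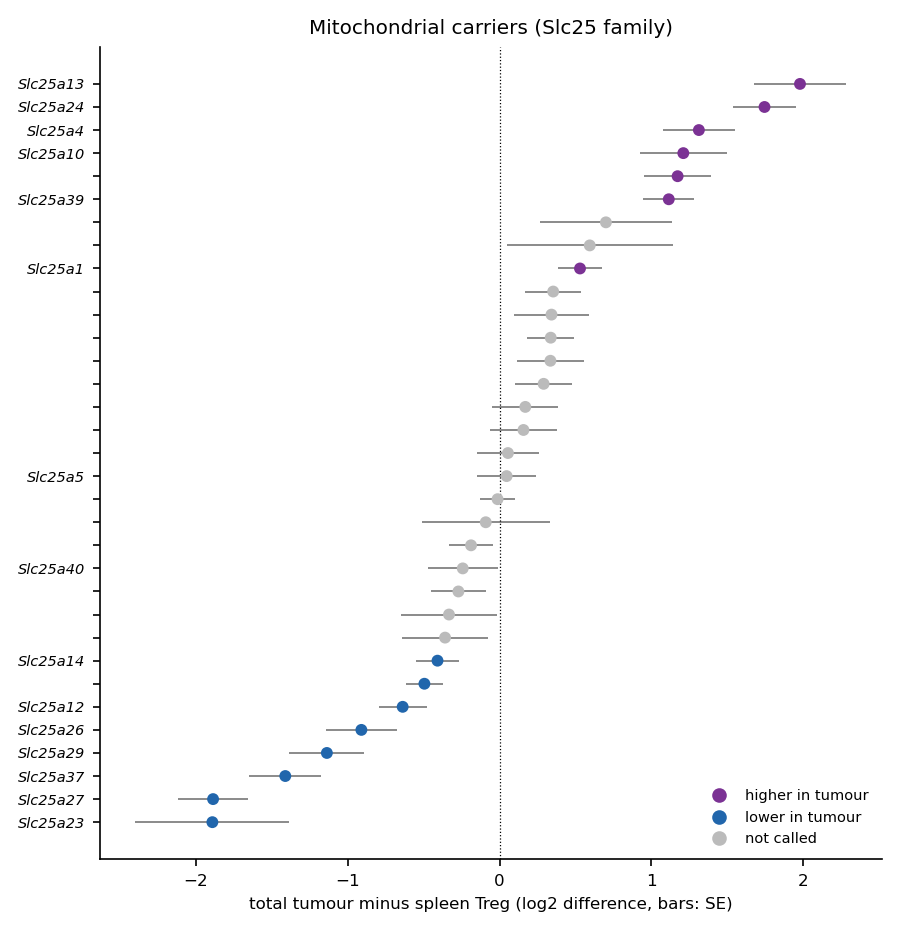
Log2 difference of total tumour against spleen Treg (horizontal axis, bars are standard errors) for the 33 mitochondrial carriers kept; purple points are higher, blue lower and grey not called at an adjusted p of 0.05, and names are given for the carriers described in the text. The called carriers range over -1.89 to 1.98.

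Of 15 sugar carriers, 5 were higher and 4 lower (60% called, median -0.04). Slc5a4a, of the sodium and glucose family, was at -1.36, -1.44 and -0.97 in total tumour Treg, against -5.84, -6.03 and -6.59 in spleen Treg, above background on 9 of 9 tumour and 0 of 3 spleen arrays (at least 6.93-fold higher, adjusted p = 0.000357). The tumour arrays alone took it past the filter, so this detection is no separate support for the call. Slc5a3, the myo-inositol carrier, was at least 2.29-fold higher, and the glucose carrier homologues Slc2a8 and Slc2a6 were higher by 1.13 ± 0.19 and 1.09 ± 0.31 on the log2 scale. Slc2a8 was at 0.64, 0.50 and 0.47 in total tumour Treg, against -0.66, -0.52 and -0.61 in spleen Treg, with little spread in either group. Slc45a3 was at least 3.94-fold lower (adjusted p = 0.00457), and Slc5a6, the multivitamin carrier, fell by 1.42 ± 0.20 on the log2 scale. Slc37a1, of the family of Slc37a2, fell by 1.91, so 2 members of 1 family differed in direction. After normexp Slc5a3 (0.88), Slc45a3 (-0.49), Slc2a6 and Slc5a6 were not called, and with the slide as a block Slc45a3 (-2.27) and Slc2a6 were not.

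The 35 carriers of monocarboxylates, organic ions, lipids and vitamins held 5 higher and 10 lower (42.9% called, median -0.23). Slc16a6, of the monocarboxylate family, was at 3.77, 3.45 and 3.41 in total tumour Treg, against 1.76, 1.61 and 1.55 in spleen Treg (difference 1.90 ± 0.15, adjusted p = 1.43e-05), while its other probe differed by 0.81 and was not called. Slc16a8, the lactate carrier of the retinal pigment epithelium, was at least 4.18-fold higher, above background on all 9 tumour arrays and on 0 spleen arrays. The tumour arrays alone took Slc16a8 past the filter, so its detection is no separate support either. In the same family Slc16a5 was at -6.89, -7.14 and -6.51 in total tumour Treg, against -2.43, 1.29 and -2.58 in spleen Treg (at least 9.74-fold lower, adjusted p = 0.00140), with spleen replicate 2 the highest array and a log2 difference of -4.35 without it. Slc16a9 was at -5.61, -6.46 and -6.34 in total tumour Treg, against -1.67, -2.31 and -2.66 in spleen Treg (at least 4.96-fold lower, adjusted p = 5.19e-05). Both were above background on all 3 spleen arrays and on 0 of 9 tumour arrays. The spleen arrays alone took both past the filter, so this detection is no separate support for the calls. After normexp none of these 4 was called, with differences of 1.48 for Slc16a6, 1.22 for Slc16a8, -1.55 for Slc16a5 and -0.56 for Slc16a9.

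Lipid and vitamin carriers differed in direction too. Slc27a1, a fatty acid importer, was at 1.0, 1.0 and 0.91 in total tumour Treg, against 0.07, -0.48 and -0.75 in spleen Treg (difference 1.36 ± 0.20, adjusted p = 0.000495). Its relatives Slc27a3 and Slc27a4 fell by 2.33 and 0.89 on the log2 scale; Slc27a3 lost its call without total tumour replicate 3, spleen replicate 1 or spleen replicate 3. The choline carrier Slc44a1 was called higher (adjusted p = 0.000394), above background on 2 of 3 total tumour arrays and 0 spleen arrays; the bound on its fold came to under 1, so no fold is given, and its other probe, at -0.14, was not called. Slc44a2 was at 2.80, 2.58 and 2.87 in total tumour Treg, against 4.10, 4.35 and 4.11 in spleen Treg (difference -1.44 ± 0.33, adjusted p = 0.00599). The carnitine carrier Slc22a5 and the ascorbate carrier Slc23a2 fell by 1.34 and 0.80; Slc23a3, a relative of Slc23a2, fell by 2.36 and was not called when total tumour replicate 1 or 2, or any spleen array, was left out. After normexp Slc44a2 was still called, whereas Slc27a1, Slc27a3 (-0.27), Slc27a4, Slc44a1, Slc22a5, Slc23a2 and Slc23a3 (-0.30) were not; with the slide as a block Slc27a3, Slc27a4, Slc44a2 and Slc22a5 lost the call.

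The 19 nucleotide sugar carriers of the Slc35 family, which supply the Golgi and endoplasmic reticulum, held 6 higher and 4 lower (52.6% called, median -0.08). Slc35e4 was at 2.09, 2.43 and 2.27 in total tumour Treg, against 0.30, -1.70 and -0.11 in spleen Treg (difference 2.77 ± 0.48, adjusted p = 0.00139). Slc35f5 and Slc35d3 were higher by 2.51 ± 0.58 and by at least 2.44-fold; the solutes of these 3 members are not well known. The carriers of UDP-N-acetylglucosamine (Slc35a3) and of the sulphate donor (Slc35b2) were higher by 0.53 and 0.56, whereas another carrier of the sulphate donor (Slc35b3) and the GDP-fucose carrier (Slc35c1) fell by 0.97 and 0.89. The CMP-sialic acid carrier Slc35a1 was at -0.94, -0.87 and -0.79 in total tumour Treg and at -0.75, -0.87 and -0.86 in spleen Treg, overlapping groups with no call (difference -0.04 ± 0.35). After normexp Slc35b3 was still called, whereas Slc35e4 (2.23, adjusted p = 0.0505), Slc35f5 (1.06), Slc35d3 (0.83), Slc35a3, Slc35b2 and Slc35c1 were not; with the slide as a block all of these but Slc35e4 and Slc35b3 lost the call.

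Of 7 carriers of nucleosides, thiamine and folate, 2 were higher and 1 lower (42.9% called, median 0.31). Slc28a2, which concentrates purine nucleosides, was at 2.25, 2.04 and 2.28 in total tumour Treg, against 4.01, 4.2 and 3.86 in spleen Treg (difference -1.84 ± 0.33, adjusted p = 0.00171). Slc19a2, the thiamine carrier, was at -0.24, -0.13 and -0.30 in total tumour Treg, against -1.02, -1.38 and -1.06 in spleen Treg (difference 0.93 ± 0.17, adjusted p = 0.00174; 0.86 with the slide as a block, not called). Neither pair of groups overlapped. The equilibrative nucleoside carrier Slc29a1 and the folate carrier Slc19a1 differed by 0.31 ± 0.19 and -0.21 ± 0.20 and were not called.

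Of 29 carriers of inorganic ions and pH, 6 were higher and 5 lower (37.9% called, median -0.21). Slc4a1ap, which is not itself a carrier, is counted among the lower ones (log2 difference -0.71). Slc12a7, a potassium chloride exporter, was at 0.69, 0.89 and 0.91 in total tumour Treg, against 2.79, 3.95 and 2.87 in spleen Treg (difference -2.37 ± 0.27, adjusted p = 0.000126). Its relative Slc12a4 rose by 1.20, also without overlap between the groups. Slc26a2, the sulphate carrier, rose by 1.83, and Slc4a3, an anion exchanger, was at least 1.80-fold higher (log2 difference 2.84, 0.60 by its other probe, which was not called). Slc9a8, a sodium proton exchanger, fell by 1.25, but its other probe rose by 1.20 (adjusted p = 0.000619). The call of Slc9a8 was lost with the slide as a block and with no filter. It was also lost without total tumour replicate 1 or 2, or without spleen replicate 2 or 3. After normexp Slc12a4 and Slc4a3 (1.07) were not called. The phosphate carrier Slc20a1 and the cotransporter Slc12a2 differed by -0.33 ± 0.30 and -0.64 ± 0.37, neither called; Slc12a2 was called when only the 6 arrays compared were fitted (-0.64, adjusted p = 0.0338).

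Probes of 1 gene disagreed in a few other cases. Of 35 called carriers with more than 1 probe, 6 had a probe of opposite sign and 2, Slc38a1 and Slc9a8, a probe called the other way. The uncalled carriers Slc7a11, Slc30a1, Slc30a7, Slc10a7 and Slc11a2 also had a probe called with the opposite sign. Slc38a1, a glutamine carrier, fell by 0.87, 0.92 and 0.76 by 3 probes, rose by 0.55 by another (adjusted p = 0.0181) and differed by 0.40 by the last, not called.

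Between IL10+ and IL10- tumour Treg, 0 of 198 carriers were called (limma), beside 0.0515% of all features (0.00644% higher and 0.0451% lower). At an unadjusted p under 0.05 there were 12 (6.06%), beside 4.63%. The IL10+ arrays lay all above the IL10- arrays for 4 carriers (beside 1.81% of all features) and all below for 8 (beside 5.59%). The median difference was -0.05, beside -0.04 for all features. The smallest p was that of Slc6a13, a carrier of GABA and taurine, which was at -3.03, -2.83 and -1.73 in IL10+ Treg, against -1.07, -0.65 and -0.55 in IL10- Treg (difference -1.77 ± 0.33, adjusted p = 0.233). All IL10+ arrays lay below all IL10- arrays, and the difference passed the test only without IL10+ replicate 3 (-2.17, adjusted p = 0.0441). Total tumour Treg were at -1.08, -1.31 and -1.15 for this gene, just below the IL10- arrays and within the range of the spleen arrays, which were at -0.62, -1.39 and -1.21.

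The next 4 carriers by p were also not called. Slc37a2 was at 0.59, 1.5 and 1.17 in IL10+ Treg, against -0.25, 0.45 and 0.31 in IL10- Treg (difference 0.92 ± 0.28, adjusted p = 0.829); the macrophage marker sum was 9.26 to 9.92 in IL10+ and 8.95 to 9.43 in IL10- Treg, and its part was not tested. Slc26a11, a sulphate and anion carrier, was at 0.65, 0.79 and 1.02 in IL10+ Treg, against -0.03, -0.20 and 0.14 in IL10- Treg (difference 0.85 ± 0.27, adjusted p = 0.865). In both genes the groups did not overlap. Slc9a7, a sodium proton exchanger of the Golgi, differed by -0.83 ± 0.27, and by 0.71 after normexp. Slc16a11 was above background on 1 of 3 IL10+ and all 3 IL10- arrays and differed by -2.66 ± 0.72 (adjusted p = 0.637), 0.36 after the normexp correction. Slc7a5, Slc3a2 and Slc38a2 differed by 0.02 ± 0.33, 0.10 ± 0.14 and 0.13 ± 0.21 between the fractions, with overlapping arrays.

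**Figure D5:**
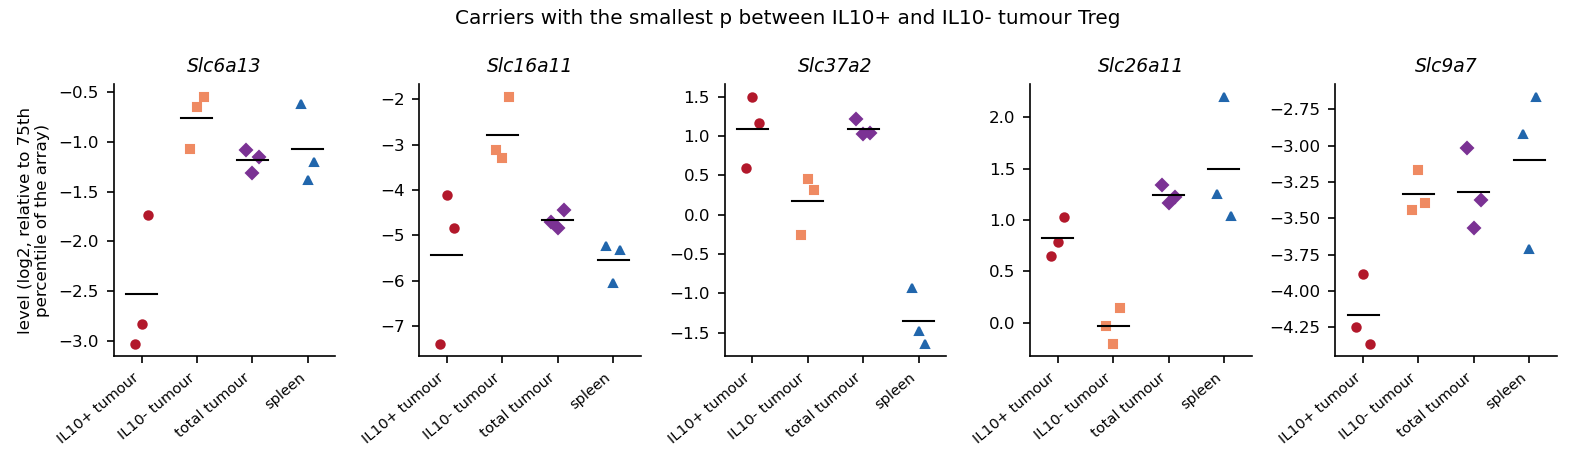
Level on each array (log2, relative to the array's 75th percentile) of the 5 carriers with the smallest p between IL10+ and IL10- tumour Treg, in IL10+ tumour, IL10- tumour, total tumour and spleen Treg, 3 arrays each; black bars are group means. The adjusted p of the 5 ran upward from 0.233, so none passed the threshold.

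Against total tumour Treg, 0 carriers were called in IL10+ Treg (limma), beside 0.2% of all features (0.0709% higher and 0.129% lower), and 0 in IL10- Treg, beside 0.0515% (0.0322% higher and 0.0193% lower). At an unadjusted p under 0.05 there were 27 (13.6%, beside 16.8% of all features) and 25 (12.6%, beside 15.5%). All arrays of a fraction lay above total tumour for 24 carriers in IL10+ (beside 8.27%) and 37 in IL10- Treg (beside 12.7%), and below for 22 (beside 14.8%) and 23 (beside 15%). Both comparisons use the same total tumour arrays, and reporter strain, gate and IL10 fraction cannot be told apart in them. All IL10- arrays were on a slide without total tumour arrays, so slide also differs throughout that comparison. Of the IL10+ arrays, replicate 2 was on the IL10- slide and replicate 1 on a slide with total tumour replicates 1 and 2. IL10+ replicate 3 was on a slide of its own. Slc25a1, the citrate carrier, was at 2.83, 3.15 and 2.90 in IL10- Treg, against 2.09, 2.12 and 2.28 in total tumour Treg (difference 0.79 ± 0.14, adjusted p = 0.0515), and at 2.45, 2.70 and 2.62 in IL10+ Treg (0.42 ± 0.14 against total tumour, adjusted p = 0.187). Each fraction lay above the total tumour arrays without overlap.

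The other carriers with the smallest p gave these differences, none called. Slc25a40, a mitochondrial glutathione carrier, differed by -0.80 in IL10+ and -1.02 in IL10- Treg against total tumour Treg. Slc35b4 differed by -0.61 in IL10+ and -0.52 in IL10- Treg, Slc16a6 by -0.63 in IL10+ and -0.54 in IL10- Treg, and Slc27a1 by 0.78 in IL10+ and 0.69 in IL10- Treg. Slc25a14, an uncoupling protein homologue, differed by -0.64 in IL10+ and -0.42 in IL10- Treg, Slc26a11 by -0.42 in IL10+ and -1.28 in IL10- Treg, and Slc43a1 by 0.65 in IL10+ and 1.25 in IL10- Treg. Without IL10+ replicate 1, which had low Cd3e, 7 carriers were called in IL10+ Treg against total tumour Treg, beside 489 of all 15523 features. Slc25a40 (-1.06), Slc35b4 (-0.70) and Slc43a1 (1.10) were among them. In IL10- Treg 3 were called, Slc25a1, Slc25a40 and Slc43a1, beside 186 of all features. That array enters the IL10- comparison only through the shared estimate of the spread, and the differences of these carriers there were unchanged.

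Transporters with names other than Slc and a number were listed beside the carriers. Of 18 such genes kept, 3 were higher in total tumour than in spleen Treg and 4 lower (38.9% called, beside 42.3% of all features, median 0.17). Mfsd2a, a carrier of lysophospholipids, was at 1.98, 1.67 and 1.57 in total tumour Treg, against -1.16, -2.15 and -1.21 in spleen Treg (difference 3.25 ± 0.25, adjusted p = 1.24e-05). Spns1, a lysosomal carrier of lysophospholipids, fell by 1.20 ± 0.16. In IL10+ against total tumour Treg 0 of the 18 were called (limma) and 7 had an unadjusted p under 0.05 (38.9%, beside 16.8% of all features). For Mfsd2a the groups were far apart, and the IL10 fractions lay between them, at 0.41 to 0.90.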

How the data were processed

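RNA of 4 groups of 3 sorted Treg samples was measured on 12 one-colour arrays. Spot intensity was deposited as scanner output of Feature Extraction (version 9.5.3.1, per the file headers), whose processed signal is corrected for background within each array but not scaled across arrays; probe positions are on mm8. A deposited value table is log10-scaled: its columns correlate with log10 of that signal at r of 0.995 or more. How it was normalized is not stated, and it served as an alternative.

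Control spots were left out and spots of a probe averaged on the log2 scale (43379 spots, 41174 probes). Levels were log2 of the processed intensity minus the array's 75th percentile over probes. A gene was its brightest probe, and features well above background on 3 or more arrays entered the fit. All 12 arrays were fitted with limma 3.58.1 (two-sided moderated test), run under R 4.3.3; statmod 1.5.0 and version 1.17.8 of the package data.table were also used. The p-values were adjusted by Benjamini-Hochberg over 15523 features within a comparison. The fit was tested on simulated data. Figures were drawn with matplotlib 3.10.9 and pandas 2.3.3 in Python 3.11.15. RefSeq (GRCm38.p6) gives another symbol for 3 of the array's names (Slc24a6, Slc9a10, Slc6a20), which were kept.

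Members, lists, tests and alternatives were chosen with earlier results of these data known. Named are the 12 largest rises and falls among called carriers without overlap in total tumour against spleen Treg, the 5 with the smallest p in each other comparison, the 2 with the smallest p of each role and of each other list, 18 carriers of T cell interest in any case (a few items are not reported here), and those detected in 1 tissue only; a few further carriers were named after their values were seen. Samples were not paired by replicate number in the main fit. Correlations of same-numbered deviations were -0.02, 0.08 and 0 for total tumour and spleen Treg. For IL10+ and IL10- Treg they were 0.41, 0.43 and -0.24, against -0.545 and -0.57 between replicate 1 of a fraction and replicate 2 of the other. Whether same-numbered samples of these fractions share an experiment was not tested. Alternatives were another background correction (normexp, offset 50), other scalings and filters, every probe as a feature, and the value table as input. Others were fewer arrays, slide and replicate blocks, and each array left out.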

Additional observations from a re-analysis of the deposited data

How the results depend on the processing

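Counts of carriers higher and lower in total tumour than in spleen Treg were within 1.5 times of 49 and 43 under most alternatives. The exceptions were the normexp background correction (13 higher and 10 lower, with 1865 features called in all beside 6567), the slide as a fixed block (30 and 22, with 3383 features called) and a threshold of at least 2-fold (26 lower). Leaving out each array in turn gave 43 to 51 higher and 32 to 45 lower. Scaling to the median gave 34 and 31. With the replicate block there were 47 higher and 40 lower, and the block changed no count of the other comparisons. Of the 92 called carriers, 17 kept the call in every alternative, and 1, Slc5a11, changed sign in any (0.008 after normexp). The cause of these shifts was not tested.

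The other comparisons had 0 calls. Leaving out each array gave 0 to 1 for IL10+ against IL10- Treg (1 without IL10+ replicate 3, Slc6a13), 0 to 7 for IL10+ against total tumour Treg (7 without IL10+ replicate 1), and 0 to 3 for IL10- against total tumour Treg (3 without IL10+ replicate 1, and 1 without IL10+ replicate 3, Slc25a40, or without spleen replicate 2, Slc26a11). Restricting the fit to features above background on all 12 arrays gave 2 in the last comparison, Slc25a1 and Slc26a11, beside 130 features called in all.

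Apart from Slc5a11, the named differences that turned sign belonged to carriers not called. Between IL10+ and IL10- Treg, normexp gave 0.36 for Slc16a11 and 0.71 for Slc9a7. Between total tumour and spleen Treg, normexp gave 0.16 for Slc7a11, -0.0669 for Slc29a1, 0.10 for Slc35a1 and -0.21 for Slc25a5; the slide block gave 0.0902 for Slc1a5, 0.23 for Slc7a11, -0.43 for Slc30a1 and 0.0346 for Slc35a1. Slc25a5 was at -0.14 after quantile scaling, -0.0239 after median scaling, -0.26 in the value table and -0.0092 with the percentile over spots, an alternative chosen after seeing the data. With each array left out in turn, Slc7a11 ranged over -0.7072 to 0.22 and Slc20a1 over -0.5584 to 0.0885, both highest without spleen replicate 2; Slc30a1 was lowest, at -0.0714, without total tumour replicate 2, and at -0.002 without replicate 1.

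Dim signal limits what can be read: a carrier below background on every array of a group has only a bound there, and 119 of the 317 carriers were too dim to enter the fit. The number of arrays, 3 per group, limits the precision of every difference.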
